A study of Mus musculus with 4 samples.

Results

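Parathyroid hormone-like hormone, adrenomedullin and the natriuretic peptides are secreted signals that act on blood vessels. They were followed here, with their receptors, as 10 genes of 17915 coding genes in the deposited table. The 10 genes were Pthlh and its receptor Pth1r, Adm with Calcrl, Ramp1, Ramp2 and Ramp3, the receptor Vipr1, and Nppa and Nppb. They were matched by gene symbol. Pthlh was chosen by its measured values, a large rise in tdTomato+ libraries, so its values are a description and are given without a test. The cells were pulmonary endothelial cells from lungs of mice of genotype Cdh5-CreER;aSMA-LSL-Dre;NR1, with tamoxifen 5 times and 6 weeks of transverse aortic constriction (TAC), a surgical narrowing of the aorta used here to bring on lung fibrosis. No label says how the cells were separated. Cdh5-CreER is a tamoxifen-inducible Cre recombinase driven in endothelium. In this arrangement it frees a Dre recombinase that the alpha smooth muscle actin (aSMA) gene drives, and NR1 is the reporter. ZsGreen+ cells (2 libraries) carried the endothelial mark alone. tdTomato+ cells (2 libraries) had switched the aSMA gene on at some time, even for a short period, so they need not have expressed it when collected. Both groups had TAC and tamoxifen, and no sham group is among these samples. Libraries are labelled as biological replicates, but no label says whether each came from a separate mouse. The p-values thus measure only the spread between these libraries, which may be technical.

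Parathyroid hormone-like hormone is a local hormone that relaxes vascular smooth muscle through the receptor PTH1R, which raises cyclic AMP. Adrenomedullin acts on endothelium through the receptor encoded by Calcrl, whose ligand preference is set by a partner, a receptor activity modifying protein (RAMP). With RAMP1 the receptor prefers calcitonin gene-related peptide, and with RAMP2 or RAMP3 it prefers adrenomedullin. Vipr1 encodes a receptor for vasoactive intestinal peptide (VIP). Nppa and Nppb encode atrial and B-type natriuretic peptide, best known from heart muscle, which act through the guanylyl cyclase receptor encoded by Npr1.

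The regions at the starts of Pthlh, Nppb, Nppa and Ramp3 are shown because the TPM levels of these 4 genes did not overlap between the groups (TPM is transcript abundance corrected for gene length and depth). Each region is a window of 300 bases from RefSeq on GRCm38.p6, 250 before and 50 after a start, written along the gene's strand. For Pthlh and Nppa that start is the edge of the gene span given below. For Nppb and Ramp3 it lies inside the span. Capitals mark matches, on either strand, to any of 6 motifs searched. The TATA box was searched as TATAAA, the core that GATA factors bind as TGATAA, and the muscle element M-CAT as CATTCC. The GC box was searched as GGGCGG, the hypoxia response core as ACGTG and the core of the cyclic AMP response element as TGACG. The windows are chr6:147263964-147264263 (minus strand) for Pthlh, chr4:147985650-147985949 (plus strand) for Nppb, chr4:148000472-148000771 (plus strand) for Nppa and chr11:6658283-6658582 (plus strand) for Ramp3. The RefSeq table held windows for 9 of the 10 genes.
Pthlh: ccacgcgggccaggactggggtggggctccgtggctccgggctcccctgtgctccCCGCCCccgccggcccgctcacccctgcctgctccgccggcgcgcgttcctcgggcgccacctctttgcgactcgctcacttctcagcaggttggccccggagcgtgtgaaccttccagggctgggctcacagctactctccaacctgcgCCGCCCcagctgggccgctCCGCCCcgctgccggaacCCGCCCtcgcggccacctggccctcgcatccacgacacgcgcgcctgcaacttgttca
Nppb: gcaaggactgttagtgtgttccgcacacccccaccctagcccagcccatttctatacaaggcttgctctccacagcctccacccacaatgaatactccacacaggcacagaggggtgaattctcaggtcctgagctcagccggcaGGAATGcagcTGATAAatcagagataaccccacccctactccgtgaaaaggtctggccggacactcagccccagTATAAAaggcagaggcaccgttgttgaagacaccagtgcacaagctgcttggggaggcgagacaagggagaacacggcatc
Nppa: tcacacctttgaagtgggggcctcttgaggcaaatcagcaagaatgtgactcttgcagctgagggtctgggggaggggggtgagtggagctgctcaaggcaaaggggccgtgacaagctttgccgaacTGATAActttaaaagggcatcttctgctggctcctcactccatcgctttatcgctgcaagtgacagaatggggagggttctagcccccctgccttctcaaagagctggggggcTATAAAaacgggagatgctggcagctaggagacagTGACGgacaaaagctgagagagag
Ramp3: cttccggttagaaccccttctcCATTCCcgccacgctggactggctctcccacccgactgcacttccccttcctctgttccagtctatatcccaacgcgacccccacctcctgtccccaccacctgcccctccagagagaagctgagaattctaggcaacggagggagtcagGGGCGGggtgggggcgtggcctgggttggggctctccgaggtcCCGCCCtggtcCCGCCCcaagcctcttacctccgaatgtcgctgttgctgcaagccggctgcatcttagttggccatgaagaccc

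The Pthlh window was 74.0% G and C, a share reached by 4.8% of 32851 windows of this length, and held 4 GC boxes and no other motif searched. The GC box occurred in 35.7% of all windows. The Nppb and Nppa windows each held a TATA box and a GATA core, a pair found in 2.18% of windows (13.6% and 9.1% for each motif alone). Nppb also held an M-CAT match (14.7% of windows) and Nppa a TGACG match (20.8%). Counted in bases from the start, the TATA match lay at -31 in Nppb and at -9 in Nppa. The TGACG match of Nppa lay at 26, after the start. The Ramp3 window held 3 GC boxes and 1 M-CAT match. The letters ACGTG, searched as the hypoxia response core and present in 19.6% of windows, were in none of these 4 windows. Other forms of this core were not searched. The motifs were chosen after values had been seen. No matches overlapped in the 4 windows. A match describes the letters only, and binding was not measured.

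Pthlh (NCBI Gene 19227, chromosome 6, 147252109 to 147264013 in GRCm38) was read at 308 and 236 counts in tdTomato+ libraries 1 and 2 and at 25 and 29 counts in ZsGreen+ libraries 1 and 2. Its level was 22.0 and 15.2 TPM in the tdTomato+ libraries and 1.65 and 1.96 TPM in the ZsGreen+ ones. Both tdTomato+ libraries thus stood far above both ZsGreen+ libraries, and the ZsGreen+ libraries lay close together. In CPM, counts divided by library size as scaled by edgeR, the means were 14.7 ± 3.22 CPM (SD, n = 2) against 1.59 ± 0.00471 CPM (SD, n = 2). The fitted fold was 9.22, a log2 fold change of 3.20 (SE 0.36), which ranked 46 among 13177 genes tested. Higher CPM in both tdTomato+ libraries, without overlap, was found for 19.9% of genes tested, and 0.304% were called in either direction, but Pthlh was picked for its rise and nothing is read from either share. Over 12 alternative settings other than the replicate block, which the closing section gives, the log2 fold change of Pthlh lay between 2.79 and 3.43. Pthlh stood below Adm in TPM in the ZsGreen+ libraries, where Adm was 9.7 and 11.9 times higher, and near it in the tdTomato+ libraries, with ratios of 0.719 and 1.14. In a bulk library, fewer cells of a type and less RNA per cell cannot be told apart.

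Pth1r (NCBI Gene 19228, chromosome 9, 110722085 to 110747145), the receptor for parathyroid hormone and its relative, was close to the detection floor. Its counts were 9 and 4 in tdTomato+ cells and 7 and 9 in ZsGreen+ cells, and the groups overlapped. The exact 95% Poisson intervals, which cover counting error only, ran from 1.09 to 10.2 for the count of 4 and from 4.12 to 17.1 for each count of 9. In TPM the ligand stood 55 and 89.6 times above the receptor in tdTomato+ cells and 5.69 and 4.78 times above it in ZsGreen+ cells. The ratios for tdTomato+ cells rest on 9 and 4 receptor counts. An exon of Pth1r overlaps Myl3 on the other strand in GENCODE vM21, and no source used here gives the strand setting of the counting. The second family receptor, Pth2r, had 1 count in all 4 libraries together. Of the 3 genes of this family in the table only Pthlh passed the filter on low counts.

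**Figure D1:**
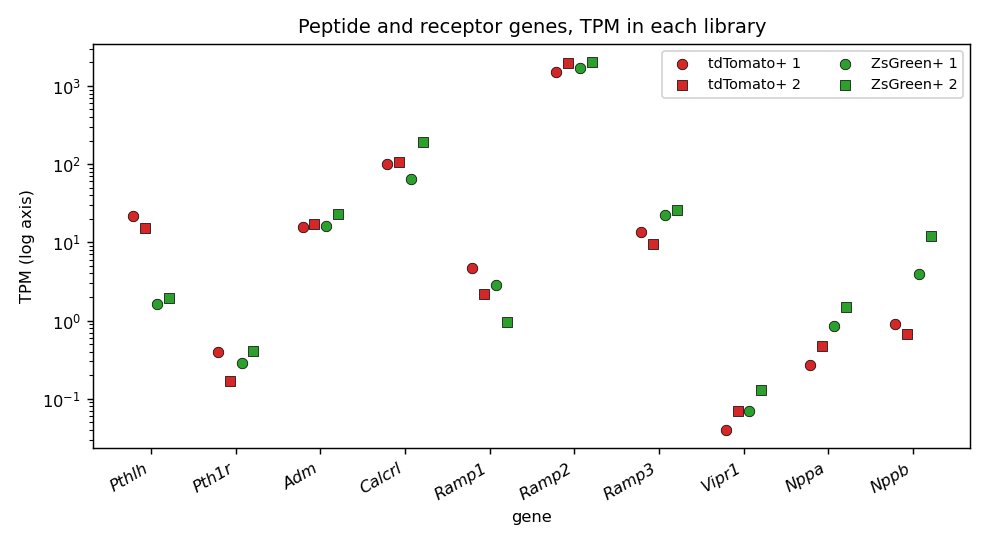
TPM of the 10 genes on a log axis, with red points for tdTomato+ and green points for ZsGreen+ libraries, circles for replicate 1 and squares for replicate 2. Pthlh lies higher in both tdTomato+ libraries, Ramp3, Nppa and Nppb lie higher in both ZsGreen+ libraries, and Ramp2 is the most abundant gene of the set at 1486 to 2001 TPM.

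Of the other 9 genes, 6 passed the filter on low counts, and Pth1r, Vipr1 and Nppa did not. Nppb passed only through the ZsGreen+ libraries, where it is high, so a difference was built into its being tested. It enters no count here that rests on the filter. That leaves Adm, Calcrl, Ramp1, Ramp2 and Ramp3. edgeR's quasi-likelihood test with Benjamini-Hochberg adjustment over 13177 genes called 0 of these 5 at an adjusted p under 0.05, while 0.304% of all genes tested were called, 0.167% higher and 0.137% lower in tdTomato+ cells. Ramp3 alone of the 5 had an unadjusted p under 0.05, as had 8.77% of all genes tested. DESeq2 called 1 of the 5, Ramp3, and 2.5% of all genes, while limma-voom called 0 of the 5 and 0.25% of all genes. Of the 5, 4 had a log2 fold change below 0, with a median of -0.39 against -0.007 over all genes tested. The groups did not overlap in CPM for 2 of the 5 (Adm and Ramp3), and 38.1% of all genes tested had groups that did not overlap. These counts describe those 5 genes only. Without the filter edgeR tested all 9, Nppb among them, and called 0, against 128 of 16747 genes tested in that setting. Of the 9, 2 (Nppb and Ramp3) had an unadjusted p under 0.05, as had 1396 of the 16747.

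Adm (NCBI Gene 11535, chromosome 7, 110627657 to 110629820), encodes the precursor of adrenomedullin, and its difference between the groups did not pass the test. It stood at 15.8 and 17.3 TPM in the tdTomato+ libraries against 16 and 23.4 TPM in the ZsGreen+ ones, so the groups overlapped on this scale. In CPM the values were 11.7 and 13.6 against 14.8 and 18.2, without overlap. The log2 fold change was -0.39 (SE 0.26, 95% interval -1.004 to 0.23, edgeR adjusted p = 0.794).

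Calcrl (NCBI Gene 54598, chromosome 2, 84330626 to 84425405), the receptor of adrenomedullin, was at 99.9 and 105 TPM in the tdTomato+ libraries against 64.1 and 190.5 TPM in the ZsGreen+ ones. The ZsGreen+ libraries were the lowest and the highest of the 4, and the groups overlapped. The log2 fold change was -0.41 (SE 0.40, 95% interval -1.35 to 0.54, edgeR adjusted p = 0.876). Its direction rested on single libraries, since it was 0.405 without ZsGreen+ replicate 2 and -0.92 without ZsGreen+ replicate 1 (edgeR adjusted p = 0.38 and 0.0504, with a range from 0.0504 to 1 over the 12 alternatives other than the replicate block). Calcrl was more abundant than Adm in every library, by 4 to 8.16 times in TPM.

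Ramp2 (NCBI Gene 54409, chromosome 11, 101246334 to 101248250), the RAMP that makes Calcrl an adrenomedullin receptor, was the most abundant of the 10 genes and ranked 82 of all genes by mean TPM. It stood at 1486 and 1992 TPM in the tdTomato+ libraries against 1703 and 2001 TPM in the ZsGreen+ ones. The groups overlapped, and tdTomato+ library 1 was the lowest. The log2 fold change was -0.24 (SE 0.23, 95% interval -0.78 to 0.30, edgeR adjusted p = 0.869). An exon of Ramp2 overlaps Vps25 on the same strand in GENCODE vM21, so reads there cannot be assigned by strand.

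Ramp3 (NCBI Gene 56089, chromosome 11, 6658506 to 6677478), the other RAMP that confers adrenomedullin binding, was lower in tdTomato+ libraries. It stood at 13.5 and 9.48 TPM in the tdTomato+ libraries against 22.4 and 25.9 TPM in the ZsGreen+ ones, from 123 to 320 counts. Both ZsGreen+ libraries lay above both tdTomato+ libraries, which 18.2% of all genes tested also showed. The log2 fold change was -1.23 (SE 0.28, 95% interval -1.905 to -0.56), and edgeR did not call it (adjusted p = 0.201). DESeq2 did (adjusted p = 0.0201, with a range from 0.0201 to 0.919 over the 12 alternatives other than the replicate block), and the log2 fold change lay between -1.46 and -1.02 in those 12. An exon overlaps a pseudogene, Gm11978, on the other strand. Summed levels of markers of lung capillary endothelium were also lower in both tdTomato+ libraries. Log2 fold changes were below 0 for 9 of 10 general capillary markers (summed level 1860 and 2070 against 2550 and 3520 TPM) and for 10 of 10 aerocyte markers (286 and 270 against 388 and 454 TPM), with none at 0 in all libraries. Of the aerocyte markers, Fibin (4 and 10 against 26 and 38 counts) passed the filter only through the ZsGreen+ libraries. The part of capillary cells in the Ramp3 values was not tested.

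Ramp1 (NCBI Gene 51801, chromosome 1, 91179822 to 91225196), the partner for calcitonin gene-related peptide, was the least abundant RAMP in all 4 libraries. It stood at 4.71 and 2.18 TPM in the tdTomato+ libraries against 2.86 and 0.95 TPM in the ZsGreen+ ones, and the groups overlapped. The replicate 1 library was the higher of each group. The log2 fold change was 0.67 (SE 0.82, 95% interval -1.27 to 2.61, edgeR adjusted p = 0.903), and no setting called it. The value was -0.225 without tdTomato+ replicate 1. Leaving out ZsGreen+ replicate 2 gave -0.056, and leaving out ZsGreen+ replicate 1 gave 2.15. The summed level of macrophage markers was also higher in the replicate 1 library of each group. All 9 had a log2 fold change above 0, none was at 0 in all libraries, and their summed level was 9300 and 4200 TPM in the tdTomato+ libraries against 4150 and 1010 TPM in the ZsGreen+ ones. The summed level of 8 lymphocyte markers was 35.7 and 15.4 against 24 and 7.77 TPM, the same order of libraries as for Ramp1, and 5 of the 6 tested had a log2 fold change above 0. The part of either cell type in the Ramp1 values was not tested.

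Ramp2 made up 98.8% and 99.4% of the summed RAMP level in tdTomato+ cells and 98.5% and 98.7% in ZsGreen+ cells, in TPM. The share of Ramp3 was 0.898% and 0.473% in tdTomato+ cells and 1.29% and 1.28% in ZsGreen+ cells. The share of Ramp1 was at most 0.313%. Per library, Ramp2 stood above Calcrl by 14.9 and 18.9 times in tdTomato+ cells and by 26.6 and 10.5 times in ZsGreen+ cells. The order of levels, Ramp2, then Calcrl, Ramp3 and Ramp1, was the same in every library. With 2 libraries against 2, an exact two-sided permutation test cannot go below p = 0.333, so these shares carry no test. Further genes of the family were named after their values were seen. The atypical receptors Ackr3 and Gpr182, which can bind adrenomedullin, stood at 472 to 599 and 115 to 184 CPM, with log2 fold changes of -0.14 (SE 0.20) and -0.12 (SE 0.27). Crcp, a protein that couples this receptor to its signal, had -0.27 (SE 0.19). Calcr, the calcitonin receptor, had 0 counts in all 4 libraries, and Adm2, Calca and Calcb had at most 4 in any. Of the 8 tested genes of the calcitonin and adrenomedullin list, edgeR called 0, with 1 at an unadjusted p under 0.05. Over all genes tested these shares were 0.304% and 8.77%. DESeq2 called Ramp3 alone.

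**Figure D2:**
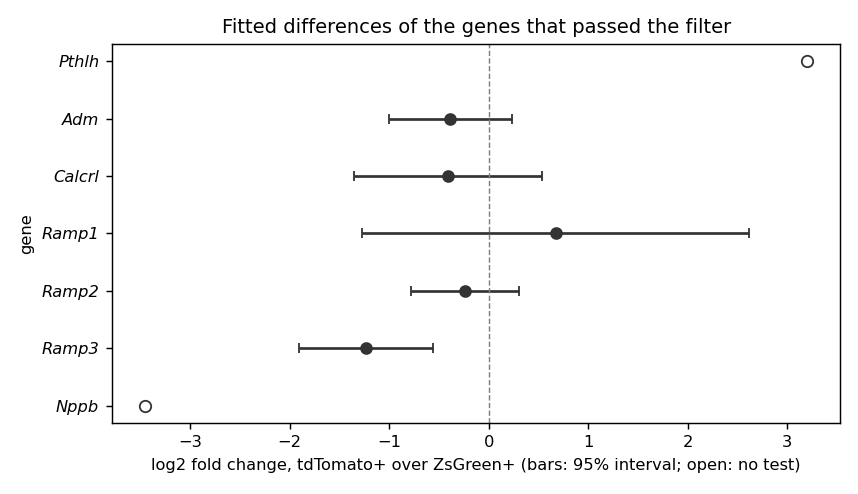
Log2 fold change of tdTomato+ over ZsGreen+ libraries for the 7 genes that passed the filter, with 95% intervals that are not adjusted for the number of genes, and Pthlh and Nppb as open points without an interval. Adm, Calcrl, Ramp1 and Ramp2 have intervals across 0, and Nppb and Ramp3 lie below 0 at -3.45 and -1.23.

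Vipr1 (NCBI Gene 22354, chromosome 9, 121642716 to 121672954) was barely read. Its counts were 2 and 4 in tdTomato+ cells and 4 and 7 in ZsGreen+ cells, or 0.04 to 0.13 TPM. The exact 95% Poisson intervals ran from 0.242 to 7.22 for the count of 2 and from 2.81 to 14.4 for the count of 7, so no difference was detectable at this depth. None of the 7 genes of the VIP and PACAP list passed the filter. Vipr2, the second VIP receptor, had 1 and 9 counts in tdTomato+ cells and 0 and 7 in ZsGreen+ cells, and the ligand gene Vip had at most 3 counts in any library.

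Nppb (NCBI Gene 18158, chromosome 4, 147985786 to 147987205), encoding B-type natriuretic peptide, was higher in ZsGreen+ libraries at low levels. It was read at 6 and 5 counts in tdTomato+ cells and at 30 and 86 counts in ZsGreen+ cells. In TPM this was 0.9 and 0.68 against 3.91 and 12.1. The groups did not overlap, and ZsGreen+ library 2 was well above library 1. The log2 fold change was -3.45 (SE 0.74), an 11-fold higher level in ZsGreen+ cells, given as a description because of how the gene passed the filter. With no filter on low counts edgeR did not call Nppb (log2 fold change -3.46, adjusted p = 0.0756), nor did limma on log2(TPM + 1) with no filter (adjusted p = 0.393). Its log2 fold change was -2.66 without ZsGreen+ replicate 2 and -3.96 without ZsGreen+ replicate 1.

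Nppa (NCBI Gene 230899, chromosome 4, 148000722 to 148002074), encoding atrial natriuretic peptide, starts 13516 bases beyond the end of Nppb. Its counts were 2 and 4 in tdTomato+ cells and 7 and 12 in ZsGreen+ cells, or 0.27 and 0.48 against 0.85 and 1.51 TPM. The order of the groups was that of Nppb, but the exact 95% Poisson intervals met, at 1.09 to 10.2 for the highest tdTomato+ count and 2.81 to 14.4 for the lowest ZsGreen+ count. An exon overlaps the antisense gene Gm13054. The third peptide gene of the family, Nppc, was named after its values were seen. It had 0 and 1 counts in tdTomato+ cells and 3 and 32 in ZsGreen+ cells, so nearly all of its reads came from ZsGreen+ library 2.

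Npr1, the guanylyl cyclase receptor for the products of Nppa and Nppb, was above both in TPM in every library, at 133 and 133 TPM in the tdTomato+ and 106 and 107 TPM in the ZsGreen+ libraries. In the fit its log2 fold change was 0.17 (SE 0.19), which did not pass the test. Npr2, the receptor for C-type natriuretic peptide, stood at 9.57 and 15.4 against 5.32 and 7.29 CPM, a log2 fold change of 0.98 (SE 0.37) that edgeR did not call (adjusted p = 0.485). Npr3, which clears natriuretic peptides, had a log2 fold change of -0.53 (SE 0.33). Of these 3 receptor genes edgeR, DESeq2 and limma-voom called 0, against 0.304%, 2.5% and 0.25% of all genes tested. In edgeR 1 of the 3, Npr2, had an unadjusted p under 0.05, as had 8.77% of all genes tested.

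Cardiomyocyte and lymphatic markers were read beside the natriuretic peptides. Of 4 cardiomyocyte markers tested 3 had a log2 fold change above 0. The summed level of the 10 markers was 25.1 and 34.7 TPM in the tdTomato+ libraries against 20.7 and 37.1 TPM in the ZsGreen+ ones. Myl4 gave most of it, at 15.9 to 30.4 TPM. Ryr2, the heart's calcium release channel, was at 0 in all libraries and Myh6, a cardiac myosin heavy chain, at 0.07 TPM or less. Myl7, the atrial myosin light chain, was listed at 0 in both tdTomato+ libraries and stood at 1.4 and 2.09 TPM in ZsGreen+ cells. The lymphatic endothelial list held 10 markers, of which Ccl21a was absent from the deposited data. Of the other 9, 8 had a log2 fold change below 0. Of the 9 edgeR called 4, all lower in tdTomato+ libraries, against 0.137% of all genes tested called lower. None of the 9 was at 0 in all libraries, and their summed level was 426 and 606 against 443 and 688 TPM, of which Lyve1 gave 338, 537, 221 and 380 TPM. Mmrn1, a lymphatic marker, stood at 5.78 and 4.06 against 22.1 and 56.3 TPM, with ZsGreen+ library 2 the highest, as for Nppb. The part of either cell type in the Nppb, Nppa and Nppc values was not tested.

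**Figure D3:**
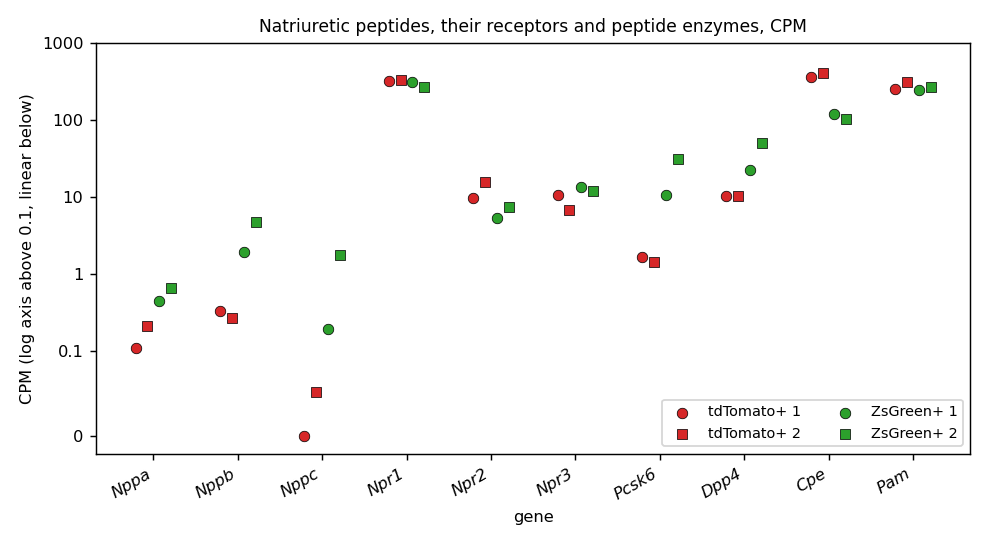
CPM of the natriuretic peptide genes, their receptors and 4 peptide enzymes, on a log axis above 0.1 and a linear axis below, with red for tdTomato+ and green for ZsGreen+ libraries. Nppb, Pcsk6 and Dpp4 lie higher in both ZsGreen+ libraries, with ZsGreen+ library 2 at the top, and Cpe lies higher in both tdTomato+ libraries at 357 and 403 CPM.

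Among enzymes that mature or degrade peptides, 1 passed the test. Cpe, carboxypeptidase E, which trims basic residues from peptide precursors, rose in tdTomato+ cells from 120 and 103 CPM to 357 and 403 CPM. This was a log2 fold change of 1.77 with an SE of 0.19 (edgeR adjusted p = 0.0304). The call was lost without tdTomato+ replicate 1 (1.85, edgeR adjusted p = 0.0761), tdTomato+ replicate 2 (1.70, 0.2) or ZsGreen+ replicate 2 (1.67, 0.0534), and over the 12 alternatives other than the replicate block the adjusted p ran from 1.15e-14 to 0.2. Cpe also stands in the list of venous endothelial markers, of which 9 of 10, Cpe among them, had a log2 fold change above 0. Ephb4 was at -0.06 (SE 0.20) and Nr2f2 at 0.20 (SE 0.29). The summed level of the list was 1690 and 1650 against 620 and 580 TPM, with none at 0 in all libraries. Cpe itself gave 293 and 314 against 79 and 80.8 TPM of it, so the list is not independent of Cpe. The part of venous cells in the Cpe value was not tested.

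Pcsk6, a furin-like proprotein convertase, stood at 1.65 and 1.42 CPM in the tdTomato+ libraries against 10.7 and 31.2 CPM in the ZsGreen+ ones. Its log2 fold change was -3.77 (SE 0.57), and edgeR did not call it (adjusted p = 0.0769). DESeq2 called it (adjusted p = 5.46e-09), and edgeR did without ZsGreen+ replicate 1 (-4.34, adjusted p = 0.0036) and without a filter on low counts (-3.77, adjusted p = 0.00726), with a range up to 0.393 over the 12 alternatives other than the replicate block. Dpp4, a protease that cleaves B-type natriuretic peptide and other peptides, stood at 10.1 and 10.3 against 22.2 and 50.3 CPM (-1.83, SE 0.39, edgeR adjusted p = 0.172). DESeq2 called Dpp4 as well (adjusted p = 0.000992), as did edgeR without ZsGreen+ replicate 1 (-2.30, adjusted p = 0.00704) and without the filter (adjusted p = 0.0472), with a range up to 0.739 over the same 12. Its log2 fold change was -1.12 without ZsGreen+ replicate 2. Nppb, Pcsk6 and Dpp4 were all highest in ZsGreen+ library 2. Pcsk5, another convertase, had a log2 fold change of 0.79 (SE 0.18, edgeR adjusted p = 0.201) and was called by DESeq2 (adjusted p = 0.0261, within a range up to 0.919 over the same 12). Of the 10 tested genes of this list edgeR called 1 higher and 0 lower, against 0.167% and 0.137% of all genes tested. Of the 10, 5 had an unadjusted p under 0.05, against 8.77% of all genes tested. The median log2 fold change was 0.05.

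Genes that carry the signal inside the cell were not called by edgeR, though DESeq2 called 3 of them. Of 36 tested genes of cyclic AMP signalling edgeR called 0, against 0.304% of all genes tested, and the median log2 fold change was 0.01. Of the 36, 5 had an unadjusted p under 0.05, against 8.77% of all genes tested. DESeq2 called Akap12 alone, an anchor protein for the cyclic AMP-dependent kinase, at 211 and 224 CPM in the tdTomato+ libraries against 324 and 504 CPM in the ZsGreen+ ones (edgeR log2 fold change -0.93, SE 0.25), and edgeR without ZsGreen+ replicate 1 called it too. The adenylyl cyclases Adcy3 and Adcy7, which make cyclic AMP, had 1.16 (SE 0.33) and 1.501 (SE 0.46), both at or under 12.2 CPM. Prkar1b, a regulatory subunit of the kinase, had -1.95 (SE 0.60) at or under 3.89 CPM. Gnas, the stimulatory G protein subunit, named after its values were seen, lay between 856 and 1180 CPM with -0.25 (SE 0.21). The 36 genes include Pde4c, also named after its values were seen, at 36 and 13 counts in tdTomato+ cells against 7 and 1 in ZsGreen+ cells. Pde4c passed the filter only through the tdTomato+ libraries, so a rise was built into its being tested.

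Of 7 tested genes downstream of cyclic GMP edgeR called 0, against 0.304% of all genes tested. Of the 7, 3 had an unadjusted p under 0.05, against 8.77% of all genes tested. The median was 0.36, and it includes Kcnmb1, named after its values were seen. Kcnmb1 had 20 and 21 counts in tdTomato+ cells against 6 and 0 in ZsGreen+ cells. It passed the filter only through the tdTomato+ libraries, so a rise was built into its being tested and nothing is read from the median. Phosphodiesterases had the smallest p of this list, with values of opposite sign. Pde2a, which cyclic GMP activates and which degrades cyclic AMP and cyclic GMP, stood at 141 and 131 against 85.7 and 74 CPM (0.77, SE 0.17), and Pde9a, which degrades cyclic GMP, at 28.6 and 33.9 against 54.6 and 59.9 CPM (-0.87, SE 0.19). DESeq2 called these 2 genes. The kinase Prkg1 had 0.86 (SE 0.36) and the phosphodiesterase Pde5a -0.57 (SE 0.48), and the latter turned to 0.13 without ZsGreen+ replicate 2. Over all 59 tested pathway genes beyond the 10, edgeR called 1 higher and 0 lower, against 0.304% of all genes. An unadjusted p under 0.05 was found for 14 of the 59, against 8.77% of all genes. Pde4c and Kcnmb1 are among the 59, but neither was called or is among the 14. DESeq2 called 3 higher and 4 lower, against 2.5% of all genes, and limma-voom called Cpe alone, against 0.25%. A replicate block raised the edgeR calls, as the closing section gives.

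**Figure D4:**
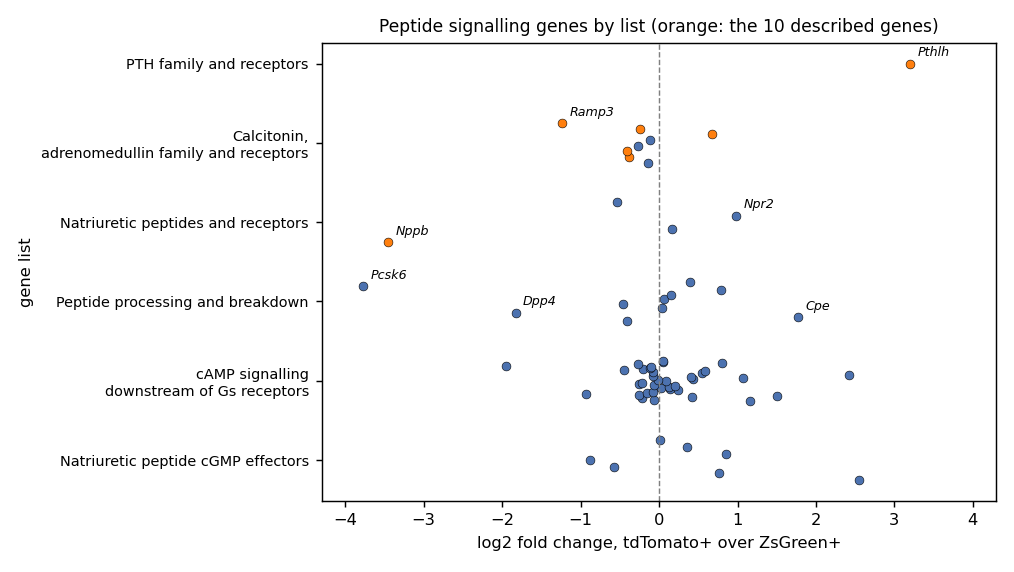
Log2 fold change of tdTomato+ over ZsGreen+ libraries for each tested gene of 6 peptide signalling lists, with the 10 described genes in orange where tested. Most points lie near 0. Among the labelled genes, Pthlh at 3.20 and Cpe at 1.77 lie outermost above 0, and Nppb at -3.45 and Pcsk6 at -3.77 outermost below 0. Kcnmb1 at 2.55 and Pde4c at 2.42, without labels, lie further above 0 than Cpe.

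The 3 genes most like Pthlh over the 4 libraries, by the root mean square difference of centred log2 CPM among 10360 genes of at least 5 CPM, were Cyp1b1, Olfm2 and Olr1. The differences were 0.272, 0.384 and 0.442 on the log2 scale over n = 4 libraries. Cyp1b1, a cytochrome P450 enzyme, stood at 12.3 and 9.56 CPM in the tdTomato+ libraries against 1.77 and 1.7 CPM in the ZsGreen+ ones. Olfm2, olfactomedin 2, stood at 47.3 and 61.6 against 9.43 and 6.85 CPM, and Olr1, a receptor for oxidised low-density lipoprotein, at 17.7 and 12.9 against 3.61 and 1.97 CPM. These genes were picked for their pattern, so it carries no test.

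Total counts ran from 17050673 to 18574737 per library. Acta2, the gene whose activity the recorder marks, was at 304 and 528 CPM in the tdTomato+ libraries against 87.6 and 82.9 CPM in the ZsGreen+ ones, higher where the recorder had marked it. This was a log2 fold change of 2.29 with an SE of 0.29 (edgeR adjusted p = 0.0432), and the call was lost without tdTomato+ replicate 2 (1.86, edgeR adjusted p = 0.126) or ZsGreen+ replicate 2 (2.24, 0.111), within a range from 2.82e-12 to 0.184 over the 12 alternatives other than the replicate block. All 12 pan-endothelial markers passed the filter, with a summed level of 9630 to 10100 TPM in tdTomato+ cells and 10500 to 10900 TPM in ZsGreen+ cells. Summed levels of some marker lists, not all, were higher in both tdTomato+ libraries, as for Pthlh. All 8 alveolar type 2 markers had a log2 fold change above 0, at a summed 838 and 909 against 435 and 248 TPM, and all 10 fibroblast markers did, at 119 and 188 against 39.9 and 48.5 TPM. Venous endothelial markers stood at 1690 and 1650 against 620 and 580 TPM (9 of 10 above 0 in log2 fold change), and arterial ones at 3350 and 4140 against 1560 and 1680 TPM (5 of 10). Of the arterial sums, the single gene Mgp gave 2250 and 2710 against 488 and 460 TPM, so their difference rests largely on Mgp. Macrophage markers, given beside Ramp1, were also higher in both. No marker of these 5 lists was at 0 in all libraries. The groups overlapped for alveolar type 1 markers (44.5 and 69.7 against 51.6 and 86 TPM), airway markers (285 and 304 against 82.5 and 2130 TPM), pericyte markers (6.91 and 9.98 against 5.76 and 11.6 TPM) and neutrophil and monocyte markers (179 and 309 against 122 and 246 TPM). Smooth muscle markers stood at a summed 147 and 189 against 146 and 183 TPM. Smtn gave most of these sums, at 122 and 141 against 128 and 158 TPM. Of the 7 smooth muscle markers tested 5 had a log2 fold change above 0, with a median of 0.69. The part of any of these cells in the Pthlh values was not tested.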

How the data were processed

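RNA of lung endothelial cells was amplified from a small input and made into libraries, per the labels' protocols. The authors deposited 1 table of 17915 coding genes with estimated counts per gene and library, called read counts per the file headers. Between 16.2% and 17.9% of values per library were not whole, and all were rounded here. Its TPM values, per the file headers, are as the authors made them. RSEM 1.3.1 and DESeq2 1.4.5 are named in the submitters' processing notes, with no role given, and for the aligner, annotation and strand setting nothing is given in the sources used here. Builds mm10 and GRCm38 are named there too.

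edgeR 4.0.16 (R 4.3.3) compared tdTomato+ with ZsGreen+ libraries by a two-sided quasi-likelihood test with TMM factors and filterByExpr (minimum count 10), which left 13177 genes. Calls have a Benjamini-Hochberg adjusted p under 0.05. Each SE was taken from the log2 fold change and its F value. On simulated data the test recovered the direction of all known changes and called nearly all of the larger but a minority of the smallest ones. Simulated libraries were drawn independently with the spread estimated from these data, and only genes of at least 5 CPM were changed. The simulation thus does not cover rarer genes or libraries that deviate together. Alternatives used DESeq2 1.42.0, limma 3.58.1, other scaling and filters, log2 of TPM plus 1 or 0.1, a replicate block, and 1 library left out.

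The 10 genes, the pathway and marker lists and the motifs were chosen with earlier results of these data known. Named pathway genes are called ones and up to 4 per list with the smallest p and at least 1 CPM. Spans come from RefSeq on GRCm38.p6, since the deposited spans of Pthlh, Nppa and Nppb mix a chromosome with a scaffold. No label names molecular identifiers, and amplified reads are not independent molecules, so Poisson intervals cover counting error only.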

Additional observations from a re-analysis of the deposited data

How the results depend on the processing

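The count of 40 called genes (22 higher and 18 lower in tdTomato+ cells) was 330 with DESeq2, 128 without a filter on low counts, 22 with limma on log2(TPM + 0.1), and 0 with limma on log2(TPM + 1) without a filter, where 1508 genes had an unadjusted p under 0.05. Leaving out 1 library gave from 4 (tdTomato+ replicate 2) to 304 (ZsGreen+ replicate 1), with 17 without tdTomato+ replicate 1 and 26 without ZsGreen+ replicate 2; the lone library was assumed to vary like the other group. The mean Ramp2 share of the RAMP level, 98.86% in TPM, was 98.15% in counts not divided by length. Among the genes named, the sign of the log2 fold change turned in 4 of 351 values. Many of these genes were named for a small p, a large difference or likeness to Pthlh. A turned sign was unlikely for those from the outset, so nothing is read from this share. Without 1 library, Calcrl ranged from -0.922 to 0.405, Ramp1 from -0.225 to 2.151 and Pde5a from -1.039 to 0.129. The cause was not tested.

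The replicate numbers are not stated to pair the libraries. Same-numbered libraries deviated together over genes (r = 0.455, across genes, which are not independent replicates), and with 2 pairs this is a hint only. With a replicate block 934 genes were called, among them Ramp3 (log2 fold change -1.25, edgeR adjusted p = 0.00114) but not Adm, Calcrl, Ramp1 or Ramp2. Of the 59 pathway genes beyond the 10, the block gave 6 higher (Adcy3, Adcy7, Cpe, Npr2, Pcsk5 and Pde2a) and 5 lower (Akap12, Dpp4, Pcsk6, Pde9a and Prkar1b). Over all 13177 genes tested the block gave 679 higher and 255 lower. Nppb is given no call, since it passed the filter only through the group where it is high. Pth1r, Vipr1 and Nppa had 2 to 12 counts per library, and depth limits what can be said of them.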
